A study of Mus musculus with 18 samples.

Results

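Ribosomal protein genes gave 18.9% of all RNA molecules counted in these sorted thymocytes, and their share was lowest in cells that carried both CD4 and CD8A on the surface. The genes are those of the cytosolic ribosome, chosen by name alone (Rps or Rpl with a number, and Rplp0, Rplp1, Rplp2 and Rpsa). The rule found 89 of 55494 genes: 36 of the small subunit, 50 of the large subunit and 3 of the stalk. All 89 matched a gene model, and 80 passed the filter on low counts. Of the other 9, Rps12l1, Rpl10l and Rpl3l had no UMI (unique molecular identifier, 1 counted RNA molecule), and 6 (Rps3a2, Rps3a3, Rpl32l, Rpl39l, Rpl6l and Rps4l) had at most 22.

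The cells came from thymi of bone marrow chimeras 6 weeks after transplant, in mice labelled as 14 weeks old. Each host had received 30% donor marrow with the OT1 or OT2 receptor (CD45.1.2) and 70% competitor marrow (B6 CD45.1). OT1 is a transgenic T cell receptor restricted by MHC class I, and OT2 one restricted by MHC class II, both specific for ovalbumin. The sort kept CD44 low cells that carried CD45.1.2 and the Vα2 and Vβ5 chains of these receptors. PosSelected hosts were wild type C57BL/6NCrl, NegSelected hosts were RIPmOVA, which express membrane ovalbumin under the rat insulin promoter, and NoSelection hosts lacked B2m (OT1) or, by the treatment label, MHC class II (OT2). For the latter host the comments name a B2m knockout, and the conflict cannot be settled from the labels. There was 1 mouse per receptor and host (6 mice, not pooled), so a difference between any pair of mice has no replicate.

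The ribosome joins a small subunit, which decodes the messenger RNA, with a large subunit, which forms the peptide bond, and the stalk on the large subunit recruits elongation factors. Genes for these proteins are transcribed at high and balanced rates. Most of their messages begin with a terminal oligopyrimidine tract (TOP), a C followed by a run of C and T, through which mTORC1 signalling controls their translation. In the thymus, most CD4+CD8+ cells are small resting cells that await selection, and cells become larger and more active when they leave that stage.

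Each of the 1331 cells had its own barcode and all came from 1 lane. The mice gave 306, 282 and 204 cells (OT1 NoSelection, PosSelected and NegSelected) and 108, 254 and 177 cells (OT2 in the same order). Cells were gated by CD4 and CD8A antibody counts. Cd4 RNA was 161 to 681 CPM (UMIs scaled to a common total per sum) in CD4+CD8+ sums and 154 to 346 CPM in CD4+CD8- sums, against 2.03 to 41.6 CPM in CD4-CD8- sums and 7.49 to 157 CPM in CD4-CD8+ sums. Cd8a RNA was 536 to 2183 CPM in CD4+CD8+ and 306 to 892 CPM in CD4-CD8+ sums, and at most 257 CPM in the other gates. In the CD4-CD8- gate, which had high UMI counts per cell, 528 of 570 cells (92.6%) held a UMI of Trdc, Trgc1, Trgc2 or Sox13, the gamma delta markers, against 16.2% of CD4+CD8+, 14.5% of CD4+CD8- and 47.9% of CD4-CD8+ cells. Summed gamma delta markers were 1088 to 2296 CPM there and at most 569 CPM in any sum of the other gates. In CD4+CD8+ sums the summed lists of other lineages were at 58.7 to 240.1 CPM (natural killer and innate lymphoid), 93.8 to 163 CPM (myeloid) and at most 70.4 CPM (B cell), against 69.5 to 194, 52.6 to 149.6 and at most 12.9 CPM in CD4+CD8- sums. Of their genes, Hbb-bs, Hba-a1 and Alas2 (erythroid), Ncr1 and Klrb1c (natural killer), Itgax and Csf1r (myeloid) and Krt5 and Psmb11 (thymic epithelium) were at 0 UMIs in CD4+CD8+ sums. The part of these cells in the results was not tested.

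Stretches with the letters of the tract stand near annotated starts of members described below that rose between gates (Rps18, Rpl22l1, Rps27 and Rps2). They also stand in members that were not called (Rpl28 and Rpl7a), while the windows of the abundant Rplp0 and of Rpl7l1 hold none. The sequences run 5′ to 3′ on the transcribed strand from 30 bases before to 30 bases after a start in RefSeq (GRCm38.p6), and capitals mark each C followed by 5 or more C or T.
Rps18: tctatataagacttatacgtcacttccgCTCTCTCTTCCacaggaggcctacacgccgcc
Rpl22l1: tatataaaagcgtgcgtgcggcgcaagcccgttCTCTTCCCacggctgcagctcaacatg
Rps27: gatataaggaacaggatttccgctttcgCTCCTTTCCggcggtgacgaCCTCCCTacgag
Rps2: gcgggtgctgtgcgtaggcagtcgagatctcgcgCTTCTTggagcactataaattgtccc
Rpl28: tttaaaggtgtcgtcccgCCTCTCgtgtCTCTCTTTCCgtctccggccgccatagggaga
Rpl7a: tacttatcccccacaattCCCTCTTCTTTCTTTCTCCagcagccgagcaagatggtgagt
Rplp0: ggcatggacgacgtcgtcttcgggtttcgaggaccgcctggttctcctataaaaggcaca
Rpl7l1: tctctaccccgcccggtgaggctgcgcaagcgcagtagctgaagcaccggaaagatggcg
The windows are chr17:33955636-33955695 (Rps18, minus strand), chr3:28805478-28805537 (Rpl22l1, plus), chr3:90213619-90213678 (Rps27, minus), chr17:24720033-24720092 (Rps2, plus), chr7:4792935-4792994 (Rpl28, plus), chr2:26910777-26910836 (Rpl7a, plus), chr5:115559437-115559496 (Rplp0, plus) and chr17:46782627-46782686 (Rpl7l1, minus).

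The promoter table held 64 of the 89 members and 60 of the 80 tested. Of these 60 genes, 45 (75%) had the tract in this window of at least 1 start, against 43.8% of the 27025 genes of the table. The letters CCGGAAG, the core bound by ETS factors, stood on either strand of the 300 bases around a start in 25 of the 60 (41.7%), against 9.93% of all genes, and CACGTG, the E-box that Myc can bind, in 6 (10.0%), against 8.09%. A match is a description of letters, and an annotated start can lie some bases away from the one used. A marked stretch therefore need not begin the message, and no match says only that the letters are not in this window.

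The first question was how the share of ribosomal protein UMIs changed with the surface phenotype. To compare cells at 1 depth, each cell was thinned to 1500 UMIs, and the 71 cells with fewer were left out. Of CD4+CD8+ cells this removed 9 of 44 (OT2 NoSelection), 14 of 80 (OT2 NegSelected) and 4 of 19 (OT1 PosSelected). In the other mice it removed 1 (OT1 NoSelection), 0 (OT1 NegSelected) and 2 (OT2 PosSelected). In CD4+CD8+ cells the mean share was 16.2% (OT1 NoSelection, 19 cells), 16.8% (OT1 PosSelected, 15), 8.89% (OT2 NoSelection, 35), 11.3% (OT2 PosSelected, 24) and 10.6% (OT2 NegSelected, 66). Over all cells and without thinning, these values were 16.2%, 13.6%, 8.31%, 11.4% and 9.72% in the same order. The OT1 NegSelected mouse had only 9 CD4+CD8+ cells (12.7%) and stayed out of the tests, which asked for 10 cells per mouse and gate. The CD4+CD8- value was 23.0% (17 cells), 19.6% (56) and 19.9% (21) in OT1 (NoSelection, PosSelected, NegSelected). It was 21.8% (10 cells), 21.1% (185) and 19.4% (41) in the OT2 mice. All 6 of these values lay above every CD4+CD8+ value.

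The CD4-CD8+ share was 18.9%, 20.3% and 16.8% in the OT1 mice and 20.6% in the OT2 NegSelected mouse, and the remaining pair of OT2 mice had 3 and 8 such cells. In CD4-CD8- cells it was 17.4%, 18.7% and 18.5% in the OT1 mice and 18.4%, 19.8% and 15.2% in the OT2 mice. Apart from the OT2 NegSelected mouse, these CD4-CD8- values also lay above all CD4+CD8+ values, while the lowest CD4-CD8+ value (OT1 NegSelected) lay among them. Without thinning, the mean share was 11.8% ± 3.11 (SD, n = 5 mice) in CD4+CD8+, 20.4% ± 1.91 (n = 6) in CD4+CD8-, 18.5% ± 1.75 (n = 4) in CD4-CD8+ and 17.5% ± 1.69 (n = 6) in CD4-CD8- cells.

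**Figure D1:**
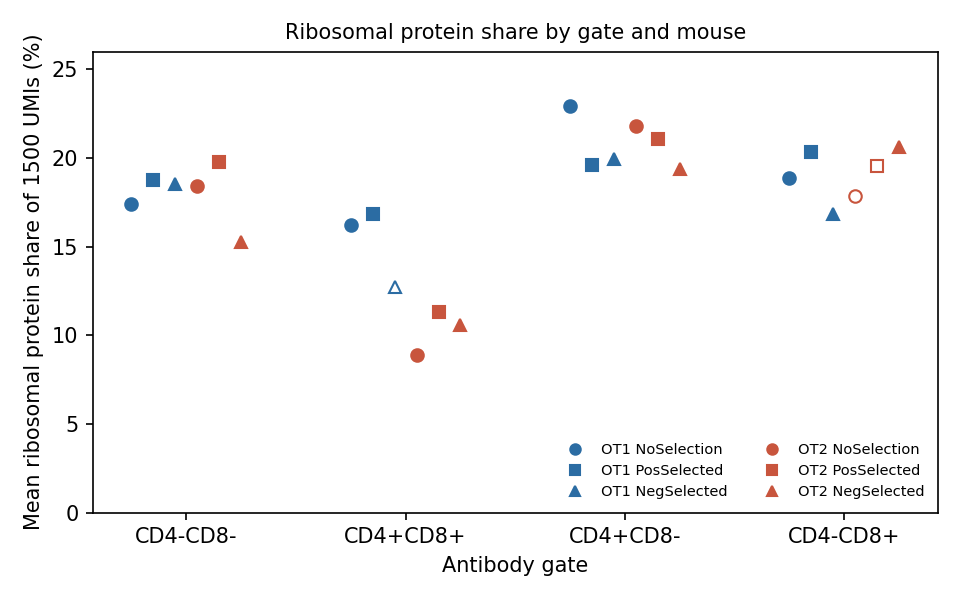
Mean share of ribosomal protein UMIs per mouse after thinning each cell to 1500 UMIs (y axis, percent) in the 4 antibody gates (x axis). Colour is the receptor and shape the host, and open symbols have under 10 cells. CD4+CD8+ values with at least 10 cells lie between 8.89 and 16.8%, below all CD4+CD8- values (19.4 to 23.0%), and the OT2 mice are the lowest there.

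Within mice, the share was 8.20 points higher in CD4+CD8- than in CD4+CD8+ cells (SD 3.76, range 2.79 to 12.9, higher in 5 of 5 mice). The largest difference was that of the OT2 NoSelection mouse, which had 10 CD4+CD8- cells. The exact two-sided sign-flip permutation test over these 5 mice gave p = 0.0625, the smallest it can give, and an adjusted p of 0.125 over the 6 pairs of gates. CD4-CD8- cells were 5.15 points above CD4+CD8+ cells (SD 3.78, 5 of 5 mice, exact p = 0.0625, adjusted p 0.125), and CD4-CD8+ cells 5.39 points (SD 4.04, 3 of 3 mice, exact p = 0.25, adjusted p 0.375). CD4+CD8- cells were 2.78 points above CD4-CD8- cells (SD 1.89, 6 of 6 mice, exact p = 0.03125, adjusted p 0.125). The difference between both single positive gates, 1.31 points (SD 2.67), was smaller than its spread, with 2 of 4 mice in each direction. No pair passed the threshold of 0.05 after adjustment. None could, since 0.125 was the smallest adjusted p possible for this test at these numbers of mice.

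Depth moved with the gates. Median UMIs per cell were 1852 to 4112 in CD4+CD8+, 2931 to 4337 in CD4+CD8-, 3353 to 6254 in CD4-CD8+ and 4429 to 6147 in CD4-CD8- cells. In cells of 2000 to 5000 UMIs alone, CD4+CD8- exceeded CD4+CD8+ cells by 6.63 points (4 of 4 mice), while CD4-CD8- exceeded them by 3.26 points and in only 3 of 5 mice. The exceptions were OT1 mice, with 16.7% in CD4-CD8- against 16.8% in CD4+CD8+ cells (NoSelection) and 15.5% against 17.4% (PosSelected). In CD4-CD8+ cells of this depth the share was 17.6% in OT1 PosSelected, near its CD4+CD8+ value. It was 21.2% against 11.1% in OT2 NegSelected. Mitochondrial UMIs, a sign of RNA quality, were 1.58 to 3.24% in CD4+CD8+ cells and 1.17 to 1.84% in CD4+CD8- cells, and lower in the latter in 5 of 5 mice. They were 1.21 to 1.40% in CD4-CD8+ (lower in 3 of 3 mice) and 1.22 to 1.73% in CD4-CD8- cells (lower in 5 of 5). Malat1, a nuclear RNA, took a mean of 0.69% of UMIs in CD4+CD8+ and 0.36% in CD4-CD8- cells of the same mice (lower in 5 of 5). Their part in the result was not tested.

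Both subunits took part, with a small tilt to the small one. Small subunit genes gave 43.0 to 44.8% of the ribosomal protein UMIs in CD4+CD8+ sums and 45.6 to 47.4% in CD4+CD8- sums, groups that did not overlap. The difference was 2.42 points (SD 0.846, higher in 5 of 5 mice, exact permutation p = 0.0625, the smallest possible, and 0.125 adjusted). A CD4+CD8+ cell held 168 to 726 ribosomal protein UMIs on average over a mouse, and a CD4+CD8- cell 633 to 1022.

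Gene by gene, the cells of 1 mouse and 1 gate were added up (21 sums of at least 10 cells), and the sums were tested with edgeR's quasi-likelihood test with the mouse as a block, over 3964 genes. The members moved together against the CD4+CD8+ gate. In CD4+CD8- cells 71 of 80 tested members rose and none fell, where 6.18% of all genes tested were called higher and 4.67% lower, and the median log2 fold change was 0.90 against -0.04 for all genes. In CD4-CD8+ cells 66 of 80 rose and none fell (4.14% of all genes called higher, 1.77% lower), with a median of 0.86 against -0.00 for all genes. In CD4-CD8- cells 71 of 80 rose and none fell (8.05% of all genes called higher, 5.05% lower), with a median of 0.74 against -0.02.

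By subunit, in CD4+CD8- against CD4+CD8+ cells, 29 of 32 small subunit genes rose (median 0.97), 39 of 45 large subunit genes (median 0.84) and all 3 stalk genes (median 0.90). Every CPM value of the 6 CD4+CD8- sums lay above every value of the 5 CD4+CD8+ sums for 55 of 80 members, and 2.93% of all genes tested had such a separation. The same held for 34 members in CD4-CD8+ sums (2.62% of all genes) and 32 in CD4-CD8- sums (3.76%). With library size in place of TMM scaling, the median of all genes was -0.21, -0.16 and -0.13 (CD4+CD8-, CD4-CD8+ and CD4-CD8-) and 66, 59 and 67 members rose.

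The counts of members that rose depended on single mice in 2 of the 3 gates and on depth in all 3. Without the OT2 NegSelected mouse, the only OT2 mouse with enough CD4-CD8+ cells, 2 members were called in CD4-CD8+ cells (9 of all 4076 genes higher, 8 lower), with a member median of 0.62. In CD4-CD8- cells 41 were called without the OT2 NoSelection and 42 without the OT2 PosSelected mouse, with medians of 0.64 and 0.70, and 195 of 3839 and 238 of 3892 genes were called higher. In cells of 2000 to 5000 UMIs, thinned to 1500, 48 of 74 members rose in CD4+CD8- cells (median 0.62), 11 in CD4-CD8- cells (median 0.34) and 0 in CD4-CD8+ cells (median 0.51, 38 at an unadjusted p under 0.05; DESeq2 was not run). Of the 615 genes tested there, 74, 42 and 2 were called higher. Without cells that held a gamma delta marker UMI, which left 42 CD4-CD8- cells, 54 of 79 rose in CD4+CD8- cells (median 0.96), 22 in CD4-CD8+ cells (0.87) and 1 in CD4-CD8- cells (0.73), where 138, 65 and 21 of all 1809 genes were called higher.

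**Figure D2:**
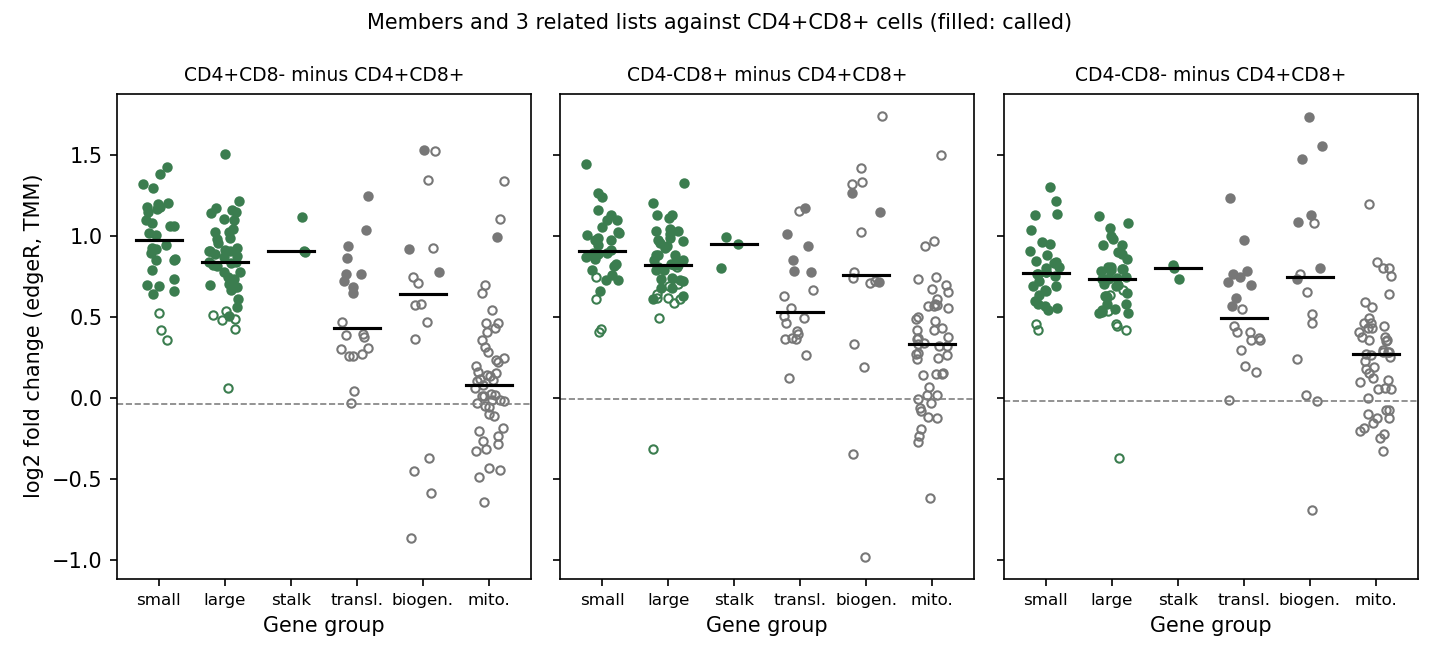
log2 fold change against CD4+CD8+ cells (y axis, edgeR) for small subunit, large subunit and stalk genes (green) and for translation factors with other TOP genes, ribosome biogenesis genes and mitochondrial ribosomal proteins (grey), in 3 panels by gate. Each point is a gene, filled where it passed the test, the bars are group medians and the dashed line is the median of all genes tested. Small subunit genes have medians of 0.97, 0.90 and 0.77, and mitochondrial ribosomal proteins 0.08, 0.33 and 0.27.

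Among small subunit genes, Rps2, Rps18 and Rps19 were among the 4 members with the largest rise in each of the 3 gates. Rps2, a protein near the entry channel for the messenger, was at 1494, 1609, 681, 1200.4 and 1070.5 CPM in CD4+CD8+ sums (OT1 NoSelection, OT1 PosSelected, OT2 NoSelection, OT2 PosSelected, OT2 NegSelected). In CD4+CD8- sums it was at 3643, 2258 and 2135 CPM in the OT1 and 2671, 2766 and 2903 CPM in the OT2 mice. The groups did not overlap, and the log2 fold change was 1.39 (SE 0.19, edgeR adjusted p = 7.95e-05). It was 1.45 in CD4-CD8+ (SE 0.21, adjusted p = 0.000612) and 1.30 in CD4-CD8- cells (SE 0.19, adjusted p = 6.87e-05), the former not called in cells of 2000 to 5000 UMIs (1.02).

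Rps18, a protein of the head of the small subunit, ran from 716 to 1823 CPM (median 1320.5) in the 5 CD4+CD8+ sums and from 2522 to 3255 CPM (median 2898) in the 6 CD4+CD8- sums. The sums did not overlap (difference 1.32 on the log2 scale, SE 0.20, edgeR adjusted p = 0.000144). Rps19, which is mutated in many patients with Diamond-Blackfan anaemia, ran from 505 to 1055 CPM and from 1492 to 1930 CPM (log2 fold change 1.43, SE 0.19, edgeR adjusted p = 6.43e-05), again without overlap. Rps12, another small subunit protein, was among the 4 largest rises in CD4-CD8- cells, at 411 to 1164 CPM in CD4+CD8+ and 1350.0 to 1850.4 CPM in CD4-CD8- sums (1.22, SE 0.20, edgeR adjusted p = 0.000225). In cells of 2000 to 5000 UMIs that difference of Rps12 was 0.16 and not called.

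The 8 members with most UMIs were Rps24, Rpl41, Rplp0, Rpsa, Rps20, Rps26, Rps15a and Rpl13, which together gave 19.9% of all ribosomal protein UMIs. CPM counts 1 end of each transcript and was not scaled by length, so levels are compared here across gates and not between genes. Rps24, the member with most UMIs, had 3933, 3619.9, 2418, 3466 and 3146 CPM in CD4+CD8+ sums (mice ordered as for Rps2) and 5419 to 7563 CPM (median 6421) in CD4+CD8- sums, higher by 1.16 on the log2 scale (SE 0.18, edgeR adjusted p = 0.000123). Rpsa, the small subunit protein also known as a laminin receptor, had 1349.7 to 4075 CPM in CD4+CD8+ and 4388 to 5916 CPM in CD4+CD8- sums (log2 fold change 1.10). Rplp0, the base of the stalk, had 2506 to 4756 and 4927 to 5852 CPM (0.90). Rpl41, the shortest of the proteins, had 2113 to 5202 and 4579 to 5916 CPM (0.78), and its groups overlapped. All of these passed the test, Rpl41 not in the cells of 2000 to 5000 UMIs (0.33).

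Several members have a paralog with the same number, and reads of close copies or pseudogenes may have been split by the authors' counting, which adds uncertainty to each single gene. Genes named as ribosomal protein pseudogenes held 0.274 UMIs per 100 member UMIs. Rpl22, an RNA-binding large subunit protein needed for the development of αβ T cells, and Rpl22l1, the paralog it represses, both rose. Rpl22l1 was at 505, 456, 117, 300.1 and 315 CPM in CD4+CD8+ sums (mice ordered as for Rps2), and at 1033, 904 and 671 CPM (OT1) and 769, 802 and 751 CPM (OT2) in CD4+CD8- sums. All 6 exceeded all 5, the lowest being OT2 NoSelection, and this was the largest rise of any member (log2 fold change 1.51, SE 0.23, edgeR adjusted p = 0.000144). Rpl22 was at 1472, 1046, 739, 645 and 793 CPM in CD4+CD8+ sums and 1496 to 1683 CPM in CD4+CD8- sums (0.91, SE 0.19, edgeR adjusted p = 0.0021). Here the OT1 NoSelection mouse came close to the CD4+CD8- values. Without cells that held a gamma delta marker UMI the Rpl22 difference was not called.

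Rps27 and Rps27l are a pair of small subunit genes. Rps27 had 2911, 2856, 1984, 2371 and 2027 CPM in CD4+CD8+ sums and 3711 to 5236 CPM in CD4+CD8- sums (log2 fold change 1.02, SE 0.20, edgeR adjusted p = 0.00139). It was also the 1 member called between CD4+CD8- and CD4-CD8- cells (0.56, SE 0.18, edgeR adjusted p = 0.0476), where 5.25% of all genes were called higher and 6.79% lower (edgeR; 9 members at an unadjusted p under 0.05, and 1 called by DESeq2). That call was lost without any 1 of 5 mice (all but OT2 NegSelected), with differences of 0.47 to 0.66 over the 6 omissions. Rps27l, a target of p53, had 176, 134, 141, 75 and 97.8 CPM in CD4+CD8+ and 114 to 174 CPM in CD4+CD8- sums, which overlapped (0.35, SE 0.26, edgeR adjusted p = 0.439). In CD4-CD8- against CD4+CD8+ cells the order was the other way, Rps27l rising by 0.77 (SE 0.23, edgeR adjusted p = 0.029) and Rps27 at 0.46 (SE 0.20, adjusted p = 0.142). The difference between both genes was not tested.

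Rpl7 had 1032 to 1692 CPM in CD4+CD8+ and 1575 to 2009 CPM in CD4+CD8- sums (log2 fold change 0.61, SE 0.17, edgeR adjusted p = 0.0185), a call lost when any 1 of the 3 OT2 mice was left out (lowest difference 0.50). Its paralog Rpl7l1 was the member that moved least. It had 109.8, 53.6, 106, 120.0 and 76.1 CPM in CD4+CD8+ and 60.3 to 132 CPM in CD4+CD8- sums (0.06, SE 0.27, edgeR adjusted p = 0.94), and 49.96 to 86.5 CPM in CD4-CD8- sums (-0.37, SE 0.25, adjusted p = 0.387). Besides Rpl7l1 and Rps27l, members not called in CD4+CD8- cells included Rpl28, Rpl7a, Rpl24, Rpl23a, Rps10 and Rpl13a, at 0.43 to 0.54; these were named after the values were seen. Of the other pairs, Rpl3 (1.14), Rpl39 (1.03), Rps4x (0.94) and Rpl10 (0.70) rose, and their second genes Rpl3l, Rpl39l, Rps4l and Rpl10l were among the 9 below the filter. The tract stood in 40 of 53 called and 5 of 7 uncalled members with a promoter.

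**Figure D3:**
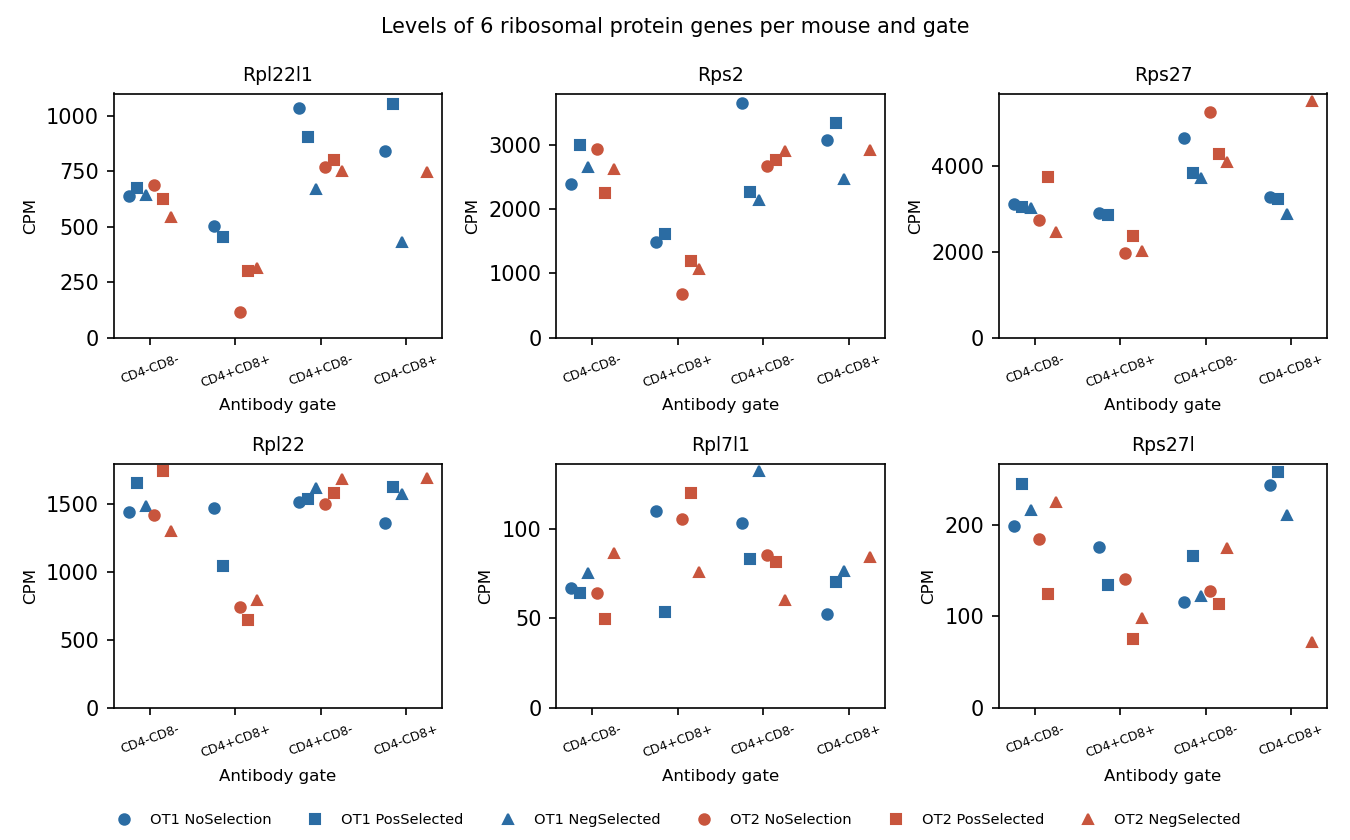
CPM (y axes, from 0) of Rpl22l1, Rps2, Rps27, Rpl22, Rpl7l1 and Rps27l in each mouse and antibody gate (x axes), 1 point per sum of at least 10 cells, colour for the receptor and shape for the host. Rpl22l1 and Rps2 in CD4+CD8+ sums (117 to 505 and 681 to 1609 CPM) lie below all CD4+CD8- sums, while Rpl7l1 and Rps27l overlap.

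A second fit asked which members departed from the common move, with the summed ribosomal protein UMIs of each sum as the offset. In CD4+CD8- against CD4+CD8+ cells, 10 members were higher and 12 lower relative to the ribosomal total, where 1.56% and 62.8% of all genes tested were called higher and lower. These shares describe genes that did not follow the ribosomal total. With so many genes called, the threshold after adjustment over all genes was lenient for the members. The offset is the sum of the members, so relative rises of some must come with relative falls of others. The 5 highest were Rpl22l1 (0.62, SE 0.19), Rps19 (0.50, SE 0.13), Rps2 (0.46, SE 0.13), Rps18 (0.41, SE 0.11) and Rps20 (0.39, SE 0.09). Among the lowest were Rpl7l1 (-0.85, SE 0.32), Rpl28 (-0.50, SE 0.10), Rpl7a (-0.44, SE 0.15) and Rpl11 (-0.43, SE 0.10).

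Rpl11, which binds the p53 regulator Mdm2, was also lower relative to the total in CD4-CD8+ (-0.36, SE 0.12) and CD4-CD8- cells (-0.33, SE 0.10). In CD4-CD8+ cells 5 members were relatively higher (0.782% of all genes) and 4 lower (45.4%), and in CD4-CD8- cells 8 were higher (2.12%) and 5 lower (50%). Rps2, Rps18, Rps19 and Rpsa were among the higher ones in both. Between CD4+CD8- and CD4-CD8- cells, Rps27 (0.37, SE 0.10) and Rps29 (0.35, SE 0.10) were relatively higher (1.97% of all genes) and Rpl7a lower (-0.44, SE 0.13; 6.96%). Their number fell from 3 to 1 without the OT1 NoSelection or the OT2 NegSelected mouse. In this fit edgeR called 0 members between CD4+CD8- and CD4-CD8+ cells (0.631% of all genes higher, 1.99% lower; 6 members at an unadjusted p under 0.05) and 0 between CD4-CD8+ and CD4-CD8- cells (0.505% higher, 1.87% lower; 3 unadjusted), and DESeq2 was not run with this offset. The number of called members in CD4+CD8- against CD4+CD8+ cells fell from 22 to 14 without the OT1 NoSelection, 12 without the OT2 NoSelection, 11 without the OT2 PosSelected and 13 without the OT2 NegSelected mouse. In CD4-CD8+ cells it fell from 9 to 2 without the OT2 NegSelected mouse, and in CD4-CD8- cells from 13 to 8, 8 and 7 without the OT2 NoSelection, PosSelected and NegSelected mouse.

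**Figure D4:**
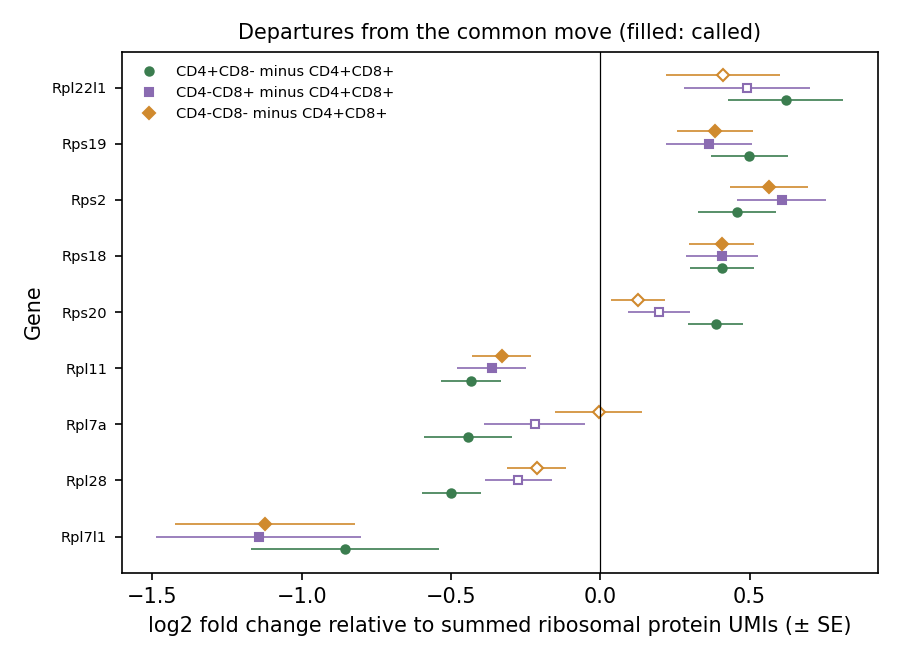
log2 fold change relative to summed ribosomal protein UMIs (x axis, bars are SE) of the members named in the text as the highest and lowest called in CD4+CD8- against CD4+CD8+ cells (y axis), with the values of the same members in the other gates. Filled symbols passed the test, and Rpl22l1 (0.62) is highest and Rpl7l1 (-0.85) lowest in that comparison.

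Between the other gates few members differed. Of 80 members, edgeR called 0 between CD4+CD8- and CD4-CD8+ cells (1 at an unadjusted p under 0.05, and 0 called by DESeq2), where 1.08% of all genes were called higher and 2.62% lower. Between CD4-CD8+ and CD4-CD8- cells edgeR also called 0 (0 at an unadjusted p under 0.05, 0 by DESeq2), where 1.39% were called higher and 2.67% lower. The medians were 0.06 and 0.13. Every value of the first gate lay above every value of the second for 0 members in the former pair (1.49% of all genes), 1 in the latter (1.64%) and 3 between CD4+CD8- and CD4-CD8- cells (1.66%).

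Genes that work with the ribosome are read against the same shares of all genes called higher (6.18, 4.14 and 8.05% in CD4+CD8-, CD4-CD8+ and CD4-CD8- cells). Of 20 translation factors and other genes with TOP tracts, 9 rose in CD4+CD8-, 6 in CD4-CD8+ and 9 in CD4-CD8- cells against CD4+CD8+ cells, none fell, the medians were 0.43, 0.53 and 0.50, and 19, 20 and 19 were above 0. Subunits of elongation factor 1, which brings aminoacyl-tRNA to the ribosome, led in CD4+CD8- cells: Eef1g (log2 fold change 1.24, SE 0.23), Eef1b2 (1.04, SE 0.21) and Eef1a1 (0.94, SE 0.17). Eef1a1 was at 2981 to 6301 CPM in CD4+CD8+ and 7180 to 8035 CPM in CD4+CD8- sums, without overlap. Fau, which encodes another small subunit protein under a name outside the rule, rose by 0.69 (SE 0.17) in CD4+CD8- cells.

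Of 25 ribosome biogenesis genes 16 were tested, and 3, 3 and 7 rose in the same order of gates, with medians of 0.64, 0.76 and 0.75. Npm1, a nucleolar chaperone, rose in all 3 (0.92, SE 0.19 in CD4+CD8-, 1.15, SE 0.21 in CD4-CD8+ and 1.13, SE 0.19 in CD4-CD8- cells). Nob1, the nuclease that finishes the RNA of the small subunit, rose in CD4+CD8- cells (1.53, SE 0.47). Its low level ranged from 0 to 38.0 CPM over CD4+CD8+ sums and from 40.2 to 71.1 CPM over CD4+CD8- sums. In the OT2 NegSelected mouse it was 38.0 and 40.2 CPM. The call was lost under 7 of the other settings, 4 of them the omission of 1 mouse (OT1 NoSelection, OT1 NegSelected, OT2 NoSelection or OT2 PosSelected), with differences of 1.36 to 2.11 over all omissions. Of 16 mTORC1 and Myc genes 9 were tested, and only Myc (1.72, SE 0.42) and Rps6ka1 (0.94, SE 0.27) rose, both in CD4-CD8- cells.

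Proteins of the mitochondrial ribosome, the other ribosome of the cell, were read in the same way. Of 78 genes 49 were tested, and 1, 0 and 0 rose in CD4+CD8-, CD4-CD8+ and CD4-CD8- cells, with medians of 0.08, 0.33 and 0.27. Those above 0 numbered 30, 39 and 38, so most leaned upward in CD4-CD8+ and CD4-CD8- cells without being called. Mrpl4 was the 1 that rose (0.99, SE 0.29, edgeR adjusted p = 0.0248), and it was not called by DESeq2 or without the OT1 NoSelection, OT1 PosSelected or OT2 NoSelection mouse (0.77 to 1.03). The summed level of the list was 4385 to 5833 CPM in CD4+CD8+ and 4297 to 5245 CPM in CD4+CD8- sums, which overlapped. It was 4378 to 6534 CPM in CD4-CD8+ and 4480 to 5882 CPM in CD4-CD8- sums, which also overlapped the CD4+CD8+ values.

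The Rag genes are active in the stage before selection. Among CD4+CD8+ cells, those with a UMI of Rag1 or Rag2, the recombinase genes, were 30 of 35 in the OT2 NoSelection, 15 of 66 in the OT2 NegSelected, 2 of 24 in the OT2 PosSelected, 2 of 19 in the OT1 NoSelection and 0 of 15 in the OT1 PosSelected mouse. Within the OT2 NegSelected mouse the share was 10.3% in cells with such a UMI and 10.7% in cells without, and in the OT2 NoSelection mouse 9.68% (30 cells) and 4.20% (5 cells). Splits of CD4+CD8+ cells at the median of CD5 antibody, which rises with receptor signalling, gave a mean difference of 0.378 points (SD 2.42, exact permutation p = 0.8125, n = 5 mice, smallest possible 0.0625). Splits at the median of CD69 antibody, a mark of recent activation, gave 0.770 points (SD 2.79, exact permutation p = 0.5625, n = 5 mice). These splits were chosen after the data were seen.

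The receptor and host comparisons were the study's own contrasts. Over all cells of a mouse, the thinned mean share in OT1 was 17.8% (NoSelection), 19.5% (PosSelected) and 18.2% (NegSelected), and in OT2 15.3%, 19.9% and 15.1%. The OT2 PosSelected mouse was the highest of all, and the other OT2 mice were the lowest. From all UMIs of a mouse, the pooled share was 18.5% (95% exact Clopper-Pearson interval 18.5 to 18.6%), 19.97% (19.92 to 20.03%) and 18.7% (18.7 to 18.8%) for OT1, and 17.3% (17.2 to 17.4%), 20.1% (20.02 to 20.2%) and 16.4% (16.3 to 16.5%) for OT2. These intervals cover counting error only and say nothing of the spread between mice.

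OT2 mice were 1.72 points below OT1 mice (16.8% ± 2.74 against 18.5% ± 0.883, SD, n = 3 each), and the exact two-sided permutation test gave p = 0.4, where 0.1 is the smallest it can give. PosSelected exceeded NoSelection by 1.68 points in OT1 and 4.60 points in OT2 mice. NegSelected was below PosSelected by values of -1.30 points in OT1 and -4.86 points in OT2, and differed from NoSelection by 0.381 and -0.262 points. With 1 mouse each, these differences got no test.

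The mice held different proportions of the gates, which accompanied these differences. CD4+CD8+ cells were 40.7% of the OT2 NoSelection and 45.2% of the OT2 NegSelected cells, 10.2% of the OT2 PosSelected cells and 4.41 to 6.74% in the OT1 mice. When the CD4-CD8-, CD4+CD8+ and CD4+CD8- gates were weighted equally (an alternative chosen after the data were seen), the shares were 18.9%, 18.4% and 17.1% in OT1 and 16.4%, 17.4% and 15.1% in OT2 mice. Over these 3 gates, PosSelected minus NoSelection was -0.46 points in OT1 and 1.00 points in OT2. The OT1 difference thus changed sign under this weighting, and the OT2 difference fell from 4.60 points. NegSelected minus PosSelected became -1.34 points in OT1 and -2.30 points in OT2, and NegSelected minus NoSelection -1.79 and -1.30 points. OT2 minus OT1 was -1.83 points (exact two-sided permutation p = 0.2, n = 3 each). This weighting left out the CD4-CD8+ gate, which held 115 of the 282 OT1 PosSelected cells (mean share 20.3%). The OT1 NegSelected value includes 9 CD4+CD8+ cells, and the NoSelection values include 17 (OT1) and 10 (OT2) CD4+CD8- cells.

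**Figure D5:**
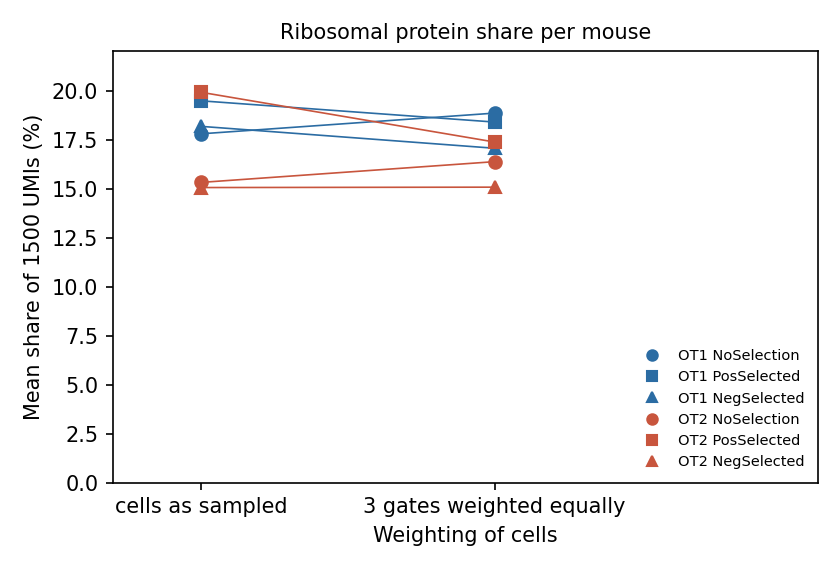
Mean share of ribosomal protein UMIs per mouse at 1500 UMIs per cell (y axis, percent) over cells as sampled and with 3 gates weighted equally (x axis), colour for the receptor and shape for the host. Values as sampled run from 15.1 to 19.9% and weighted values from 15.1 to 18.9%, and lines join the values of a mouse.

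In the fit over mice with terms for receptor and host (9092 genes, 2 residual degrees of freedom), edgeR called 0 of 80 members in each of the 4 comparisons, and DESeq2 also 0. Of all genes, 0.011% were called higher and 0% lower in PosSelected minus NoSelection, 0% either way in NegSelected minus PosSelected and in NegSelected minus NoSelection, and 0.671% higher and 0.396% lower in OT2 minus OT1. At an unadjusted p under 0.05 there were 7, 7, 0 and 7 members in this order of comparisons, and 664, 418, 236 and 1210 of all 9092 genes. Without the OT1 PosSelected mouse the members so counted were 30, 37, 0 and 21, and without the OT2 PosSelected mouse those in OT2 minus OT1 were 22. The medians over members were 0.19, -0.24, -0.04 and -0.14, against -0.01, -0.01, -0.01 and 0.01 over all genes. Members above 0 numbered 78, 2, 20 and 9 of 80. In NegSelected minus NoSelection the sign rested on single mice, with 66 of 81 above 0 and a median of 0.06 without the OT2 NegSelected mouse, and 3 of 80 and -0.14 without the OT1 NegSelected mouse. Members above 0 in NegSelected minus PosSelected were 1 to 10 and in OT2 minus OT1 0 to 18 over omissions of 1 mouse, and the medians kept their sign. The host comparisons share mice, so these counts do not support each other. The lowest value in OT2 minus OT1 was that of Rps27l (-0.62, SE 0.19, edgeR adjusted p = 0.234). Leaving out 1 mouse gave up to 3 called members (PosSelected minus NoSelection without the OT1 PosSelected mouse).

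Among CD4+CD8+ cells the receptors did not overlap. Both OT1 mice in the test had shares above the 3 OT2 mice there (16.2 and 16.8% against 8.89 to 11.3%), as did the OT1 NegSelected mouse with its 9 cells (12.7%). Their median UMIs per cell also differed, 3604 and 4112 in the OT1 and 1852 to 2471 in the OT2 mice. In cells of 2000 to 5000 UMIs alone the shares were 16.8 and 17.4% (11 cells each) against 9.34, 11.2 and 11.1%. Trdc, a gamma delta marker, was at 373 and 375 CPM in these OT1 sums and at 21.7 to 60.0 CPM in the OT2 sums, and Mki67, a gene of dividing cells, at 692 and 93.8 against 0 to 15.01 CPM. Cd8a was at 659 and 536 against 1478 to 2183 CPM, mitochondrial UMIs were 1.63 and 1.58% against 2.25 to 3.24%, and Malat1 took 0.32 and 0.50% against 0.84 to 0.94%. Of these measures only Trgc1 overlapped between receptors, and their part in the difference was not tested. A fit with a gate by receptor term, chosen after the data were seen, tested whether the rise out of the CD4+CD8+ gate was larger in OT2. edgeR called 0 of 80 members for CD4+CD8- minus CD4+CD8+ (0.0505% of all genes called higher and 0.0505% lower) and 0 for CD4-CD8- minus CD4+CD8+ (0.0757% higher, 0.0252% lower). At an unadjusted p under 0.05 there were 57 and 43 members and 400 and 431 of all 3964 genes, with member medians of 0.68 and 0.57 against 0.01 and 0.01 over all genes, and DESeq2 was not run on this term. The lowest adjusted p was that of Rpsa (0.0606, difference 1.17, SE 0.26, in CD4-CD8- minus CD4+CD8+), which was at 4075 and 3955 CPM in OT1 and 1349.7, 2341 and 1777 CPM in OT2 CD4+CD8+ sums. No member passed the threshold of 0.05 in this test.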

How the data were processed

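The authors deposited RNA UMI counts and antibody UMI counts per cell, not normalized. Libraries were made with the 10x 5' v2 kit with hashtags, per the labels' protocols, and Cell Ranger 8.0.1, Seurat and mm10 were used, per the submitters' processing notes. Cell filters and doublet handling are not given in the sources used here, and no doublet caller was run. Receptor libraries were not analysed here.

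CD4 and CD8A thresholds came from a 2-component Gaussian mixture on log2(1 + UMIs per 10000 antibody UMIs), and 251 cells lay within 0.5 of one. Counts summed per mouse and gate (at least 10 cells), or per mouse, were tested with edgeR 4.0.16 in R 4.3.3 (filterByExpr, TMM, quasi-likelihood, Benjamini-Hochberg over all genes tested, threshold 0.05). The script was tested on simulated data. The mouse was a block in the gate fits, since the gates of a mouse come from the same animal. SE was the fold change over the square root of F. Shares used Python 3.11.15 with scipy 1.17.1. DESeq2 1.42.0 and the other alternatives are below. P-values measure the spread between these mice only.

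Named members were the 4 largest changes per comparison, the 8 with most UMIs, genes with a second gene of the same number, the 5 highest and 5 lowest relative to the total, and the 3 largest called changes per list. Some items under this rule are not reported here. Members and lists were chosen with earlier results of these data known. Gene models and sequences are from RefSeq (GRCm38.p6).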

Additional observations from a re-analysis of the deposited data

Results flagged for a closer look

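Over 41 groups of 4 to 6 sums or mice, Dixon's criterion at the 95% level marked 1 value, and chance marks about 1 group in 20. Rps27 in the CD4-CD8+ sum of the OT2 NegSelected mouse was at 5499 CPM, far from the other 3 sums (2879 to 3262 CPM, all from OT1 mice). That sum holds 23 cells and is the only OT2 sum of its gate. Rps27l was at its lowest there (72.4 CPM, against 210 to 257 CPM in the OT1 sums).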

How the results depend on the processing

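Shares by gate kept their direction under all alternatives that gave a value. The paired test could not pass the threshold after adjustment at these numbers of mice, so its side of the threshold carries no information. Without pairing by mouse, 4 pairs passed by an exact permutation test: CD4+CD8- minus CD4+CD8+ (8.03 points), CD4-CD8+ minus CD4+CD8+ (6.39), CD4-CD8- minus CD4+CD8+ (5.25) and CD4+CD8- minus CD4-CD8- (2.78), with adjusted p of 0.0195, 0.0476, 0.0346 and 0.0195. That test treats gates of the same mouse as independent, which they are not, and in some pairs the gates hold different mice. Its p-values therefore do not stand in for the paired test. CD4-CD8+ minus CD4+CD8+ gave no share without cells near a threshold, and pairs with too few mice gave none without cells with a gamma delta marker UMI. NegSelected minus NoSelection was 0.0595 points, -1.57 with medians over cells, 0.595 without gamma delta marker cells and -1.55 with equal gates, and PosSelected minus NoSelection was 0.273 with equal gates.

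Called members in CD4-CD8- against CD4+CD8+ cells were 41 to 76 over omissions of 1 mouse, 1 without gamma delta marker cells and 11 at 2000 to 5000 UMIs. In CD4-CD8+ cells they were 2 to 68, 22 and 0. CD4+CD8- minus CD4-CD8- gave 2 without cells near a threshold, 2 without the replicate block, 0 without cycling cells, without gamma delta marker cells, without the top 5% of cells by UMIs (above the 95th percentile) or with 20 cells per sum, and 0 to 1 without 1 mouse. OT2 minus OT1 gave 1 with no filter and 0 to 1 without 1 mouse. PosSelected minus NoSelection gave 0 to 3 and NegSelected minus PosSelected 0 to 1. Relative to the ribosomal total, called members were 11 to 20, 2 to 8, 7 to 13 and 1 to 3 without 1 mouse (CD4+CD8-, CD4-CD8+ and CD4-CD8- against CD4+CD8+, and CD4+CD8- minus CD4-CD8-), and 11 and 0 with 20 cells per sum for the first and last. The causes were not tested, beyond fewer sums and cells in each. No other count of called members changed by more than 1.5 times. For single genes, 444 values kept their direction and call and 49 lost the call. Precision is limited by 198 CD4+CD8+ cells, by their depth and by 4 CD4-CD8+ sums. The CD4+CD8- sums of the NoSelection mice are also small (17 cells in OT1, 10 in OT2).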
